A study of Aspergillus niger with 8 samples.

Results

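The comparison described here set mycelium of Aspergillus niger held for 6 h on wheat straw against mycelium held for 24 h without any carbon source. It used 4 of the 8 libraries of the study, chosen by their titles alone: 6 h straw replicates A and B, and 24 h starvation replicates A and B. All cultures were of strain N402, a laboratory strain, and all mycelium had first grown for 48 h on 1% glucose in minimal medium at 28 °C. It was then washed, and 1.5 g wet weight was moved either to medium with 1% ball-milled wheat straw or to the same medium lacking a carbon source. The other 4 libraries, 6 h starvation and 48 h glucose in duplicate, entered the fit and are given only as levels beside the contrast. Both the time since transfer and the carbon source differ between the 2 groups, so the effects of the 2 cannot be told apart. Each group held 2 replicate flask cultures, and p-values measure the spread between such cultures only.

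Wheat straw is built of cellulose, of arabinoxylan (a xylose chain decorated with arabinose, acetyl, glucuronic acid and ferulic acid groups), and of lesser amounts of other polymers. A. niger secretes enzymes that cleave each of these linkages, takes up the released sugars, and converts xylose and arabinose to xylulose 5-phosphate by the pentose catabolic pathway. In A. niger the activator XlnR switches on xylanase and pentose genes when xylose is present, while CreA represses them on glucose. When no carbon source is left, Aspergillus hyphae recycle their own material: chitinases and glucanases cleave wall polymers of dying compartments, proteases release amino acids, and surviving hyphae can form conidiophores, the stalks that bear asexual spores.

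Counts per gene were deposited for every library. On 6 h straw, 450755 (A) and 979256 (B) reads lay on genes, against 320375 (A) and 205778 (B) reads at 24 h starvation. These were 1.97 and 3.40% of all reads on straw and 2.04 and 1.41% at 24 h starvation, groups that overlapped (exact two-sided permutation test, p = 0.667, the smallest p that 2 against 2 allows being 0.333). Levels below are therefore given as RPKM, which scales reads by gene length and library size, recomputed over the reads on genes, called RPKM on genes. For a gene of 1 kb, 1 read was worth 1.02 to 2.22 RPKM on genes on straw and 3.12 to 4.86 at 24 h starvation, so low levels were measured less finely in the starved cultures. Over all genes the log2 scaled counts of the 2 straw libraries correlated at r = 0.949 and those of the 2 starvation libraries at r = 0.907, against 0.814 to 0.835 between the groups. The 3 reference genes used for qRT-PCR in the study, actA (actin), sarA (a small GTPase of vesicle traffic) and An08g05910, were not called, with log2 fold changes of 0.55, 1.01 and 0.41.

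Large parts of the transcriptome differed. Of 6357 genes tested, 580 (9.12%) were called higher and 750 (11.8%) lower on 6 h straw than at 24 h starvation. A call required an adjusted p below 0.05 in edgeR's quasi-likelihood test (Benjamini-Hochberg) and a 3-fold ratio of mean RPKM on genes in that direction. A gene without a read in either library of the lower group was called on the adjusted p alone, which applied to 52 of the genes called higher and 74 of those called lower. The median called gene was 3.11 log2 units higher or 3.20 lower, and 118 genes called higher and 184 called lower exceeded 5 log2 units. The median over all tested genes was 0.08. The excess of genes called lower depended on the fold rule. RPKM on genes leaves out the trimmed-mean factor (0.966 and 0.962 on straw, 1.145 and 1.139 at 24 h starvation). The 3-fold threshold was thus harder to pass for a rise than for a fall. Set on the edgeR fold, it gave 652 higher (10.3%) and 684 lower (10.8%). The adjusted p alone gave 807 (12.7%) and 797 (12.5%). With the threshold on the deposited RPKM, which divides by all reads, the balance turned to 787 higher (12.4%) and 606 lower (9.53%). On reads on genes without the trimmed-mean factor the median of all genes shifted to -0.16. Leaving out straw replicate B reduced the genes called lower to 480.

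**Figure D1:**
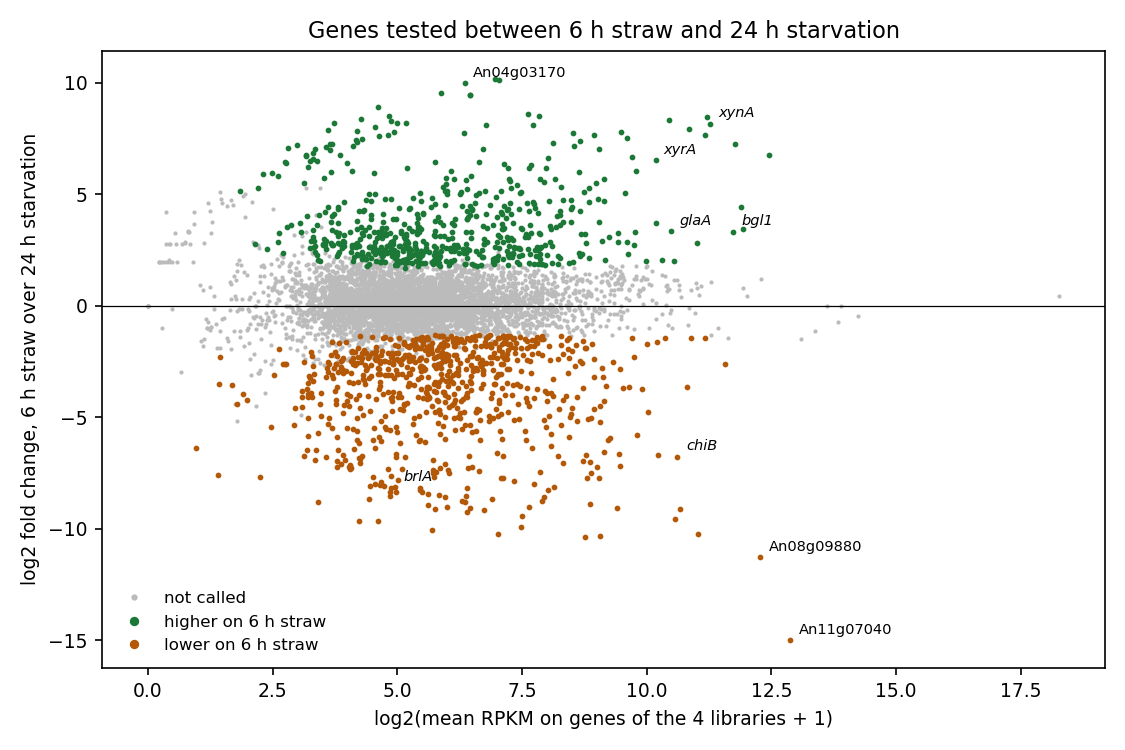
Each point is one of the 6357 genes tested between 6 h straw and 24 h starvation; the x axis is log2 of the mean RPKM on genes of the 4 libraries plus 1 and the y axis the log2 fold change from edgeR. The 580 green points were called higher and the 750 brown points lower on straw, and An11g07040 lies lowest, at a fitted value that depends on the prior count because it had no read on straw.

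Xylan genes were higher on straw, to levels that varied widely among them. Of 12 tested members of the xylan list, 11 were called higher on straw and none lower, and the median over the 12 lay at 6.87 log2 units. Because 11 of the 13 listed genes were taken from the study's table for genes raised on 6 h straw, this direction is not independent evidence. The main-chain endoxylanase gene xynA had 6557 and 3314 RPKM on genes on straw and 21.0 and 18.7 at 24 h starvation. Its log2 fold change was 8.17 (SE 0.67, edgeR adjusted p = 1.35e-07), and every straw value lay far above both starvation values. axhA, whose product removes arabinose from arabinoxylan, had 5831 and 3627 on straw and 15.3 and 15.9 at 24 h starvation (log2 fold change 8.47, SE 0.64). aguA, the α-glucuronidase that removes glucuronic acid side groups, had 5374 and 3740 on straw and 34.5 and 17.3 at 24 h starvation (log2 fold change 7.66, SE 0.67). In all 3 genes replicate A of straw was the higher.

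The enzymes that complete xylan breakdown showed the same separation. xlnD, the β-xylosidase that releases xylose, had 932 and 524 RPKM on genes on straw and 3.54 and 4.6 at 24 h starvation, a 179-fold ratio of means (log2 fold change 7.73, SE 0.64). The second endoxylanase gene, xynB, had 685 and 304 on straw and 10.3 and 4.01 at 24 h starvation (log2 fold change 6.19, SE 0.70). axeA, an acetyl xylan esterase, had 1856 and 1237 on straw and 16.2 and 0 at 24 h starvation. The feruloyl esterase gene An12g02550 had 1741 and 1105 on straw, and only 3 reads over both starvation libraries, a pooled ratio of 186 (exact 95% interval 63.6 to 904, counting error only). An11g03120, an endoxylanase gene of family GH43, was the tested member that was not called, with 4.64 and 8.54 on straw and 13.0 and 30.5 at 24 h starvation (log2 fold change -1.27, SE 0.91). None of the called xylan genes named here was as high at 6 h starvation, where their means were 1.3 to 46.6, or on 48 h glucose, where they were 0.811 to 30.2.

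The pentose catabolic genes were higher on straw as well, by less uniform amounts. Of 6 tested members, 5 were called higher and none lower, and the median log2 fold change was 2.98. xyrA, encoding the D-xylose reductase that opens the pathway, had 2110 and 2458 RPKM on genes on straw and 29.7 and 28.4 at 24 h starvation (log2 fold change 6.53, SE 0.49, edgeR adjusted p = 6.76e-08). An01g00630, annotated to xylulose metabolism, had 2954 and 2620 on straw and 16.8 and 0 at 24 h starvation (log2 fold change 8.35, SE 0.71). In these 2 genes the groups lay about as far apart as in the xylan genes, whereas the next 3 already had sizeable levels in the starved cultures.

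An12g00030, of the same xylulose term, had 1349 and 1333 RPKM on genes on straw and 204 and 239 at 24 h starvation (log2 fold change 2.84, SE 0.40). An07g03140, also of that term, had 317 and 344 on straw and 51.7 and 37.9 at 24 h starvation (log2 fold change 3.11, SE 0.43). An01g10920, a putative L-arabitol dehydrogenase of the arabinose branch, had 342 and 260 on straw and 83.3 and 109 at 24 h starvation, a 3.13-fold ratio close to the threshold, and it lost its call without straw replicate A or without 24 h starvation replicate A. The putative xylose permease gene An01g00850 was not called: it had 424 and 522 on straw and 153 and 1998 at 24 h starvation. The 2 starved cultures lay on either side of the straw values for this transporter, and the log2 fold change, -0.94 with both, was 1.89 without 24 h starvation replicate B and -1.82, now called lower, without replicate A.

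Cellulose genes followed, with more spread between the 2 straw cultures. Of 15 tested members, 11 were called higher and none lower on straw, at a median log2 fold change of 4.36. Of these members, 10 came from the study's table for genes raised on 6 h straw (8 called higher), and 5 from its table for genes raised only on 24 h straw (3 called higher). The GH3 β-glucosidase gene An11g00200, the second most read gene on straw, had 11284 and 10866 RPKM on genes on straw and 80.2 and 161 at 24 h starvation (log2 fold change 6.78, SE 0.67, edgeR adjusted p = 6.35e-07). β-Glucosidases split the short sugar chains that cellulases release into glucose. bgl1, another GH3 β-glucosidase gene, had 4928 and 7169 on straw and 901 and 525 at 24 h starvation (log2 fold change 3.33, SE 0.50), so that it remained well read in starved mycelium. An04g03170, a putative GH1 β-glucosidase gene, had 237 and 85.1 on straw and no read at 24 h starvation, which made it at least 42.0-fold higher on straw (3 counts over the group).

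Most genes of enzymes that attack the cellulose chain itself were higher in replicate A of straw than in replicate B. eglA (endoglucanase) had 1332 and 273 RPKM on genes on straw, and 3 reads over both starvation libraries, a pooled ratio of 111 (exact 95% interval 38.0 to 541). An12g02220, a putative cellobiohydrolase gene, had 1626 and 466 on straw and 10.9 and 6.81 at 24 h starvation (log2 fold change 7.04, SE 0.87). eglB (endoglucanase) had 680 and 340 on straw and 9.77 and 0 at 24 h starvation (log2 fold change 6.64, SE 0.68). Within these genes straw and starvation did not overlap, although the straw replicates lay well apart. Straw lay above starvation without overlap in 25.5% of all tested genes. cbhB (cellobiohydrolase) had 491 and 72.6 on straw and 22.7 and 7.86 at 24 h starvation (log2 fold change 4.36, SE 0.86), and its mean at 6 h starvation was higher still, at 1813. cbhA, the other cellobiohydrolase of the same family, had 50.1 and 45.7 on straw and 19.8 and 13.2 at 24 h starvation, a 2.91-fold ratio, and was not called (log2 fold change 1.74, SE 0.50, edgeR adjusted p = 0.0151). It was called higher with the fold threshold on the deposited RPKM or on the edgeR fold, on the adjusted p alone, and without straw replicate B.

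**Figure D2:**
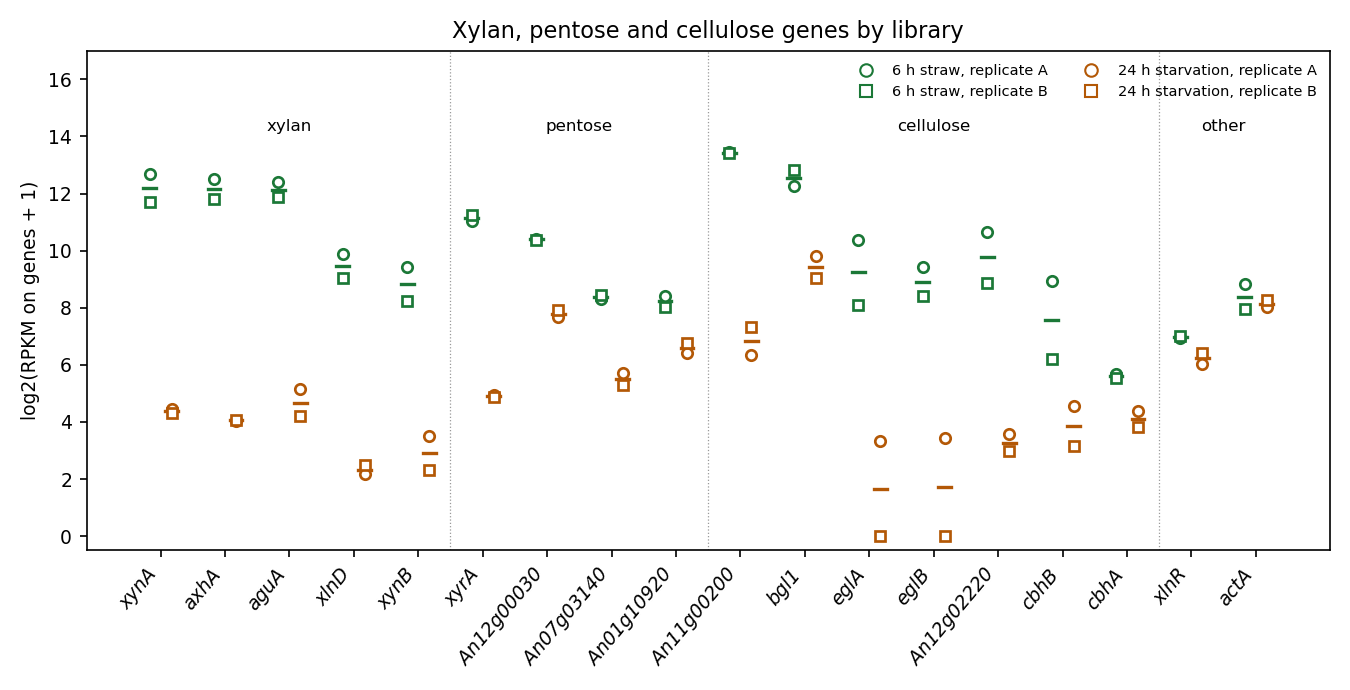
Levels of xylan, pentose and cellulose genes in each library, with xlnR and actA for reference; the y axis is log2(RPKM on genes + 1), circles are replicate A, squares replicate B, and lines the mean of the 2 points. Straw points of the xylan genes sit far above the starvation points, the straw replicates of eglA and cbhB lie well apart, and those of xlnR and actA are close to the starvation points.

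Other plant polysaccharides and storage sugars showed the same direction. Most of the xyloglucan genes came from the study's table for genes raised on 6 h straw, so their direction is not independent evidence. All 7 xyloglucan genes were called higher, with a middle value of 5.56 log2 units, or 3.30 with the unread α-fucosidase gene An16g00540 at its bound of at least 9.87-fold. axlA, an α-xylosidase of xyloglucan side chains, had 404 and 551 RPKM on genes on straw and 4.24 and 22 at 24 h starvation (log2 fold change 5.56, SE 0.61). aglC, an α-galactosidase of galactomannan and galactose metabolism, had 949 and 1246 on straw and 33.4 and 15.2 at 24 h starvation (log2 fold change 5.69, SE 0.56). Of the 4 genes annotated to galactose metabolism, aglC among them, 2 were called higher. The β-mannosidase gene An12g01850 had 102 and 116 on straw and 74.2 and 57.7 at 24 h starvation and was not called. inuE, the exo-inulinase that releases fructose from inulin and sucrose, had 331 and 447 on straw and only 2 reads over both starvation libraries, a pooled ratio of 363 (exact 95% interval 100.2 to 3002).

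Pectin genes were mixed: 11 of 22 tested members were called higher, 1 lower, and a further 13 had too few reads to be tested. The pectin genes named here were picked after their values were seen. abfA, an arabinofuranosidase gene, had 204 and 229 RPKM on genes on straw and a single read over both starvation libraries, a pooled ratio of 274 (exact 95% interval 49.1 to 10856). lacA, a β-galactosidase gene, had 1856 and 1588 on straw and 10.9 and 54.0 at 24 h starvation (log2 fold change 6.03, SE 0.63). abnC, a putative endoarabinanase gene, ran the other way, with 183 and 118 on straw and 1280 and 1259 at 24 h starvation (log2 fold change -2.84, SE 0.42). Its mean at 6 h starvation, 1117, was close to that at 24 h. Across all 109 tested CAZyme genes of the study's tables, 49 were called higher and 31 lower. Those of the table for 6 h straw gave 43 higher and 5 lower of 63 tested, those of the table for 24 h straw alone 5 higher and 23 lower of 41, which the choice of the tables partly fixes.

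**Figure D3:**
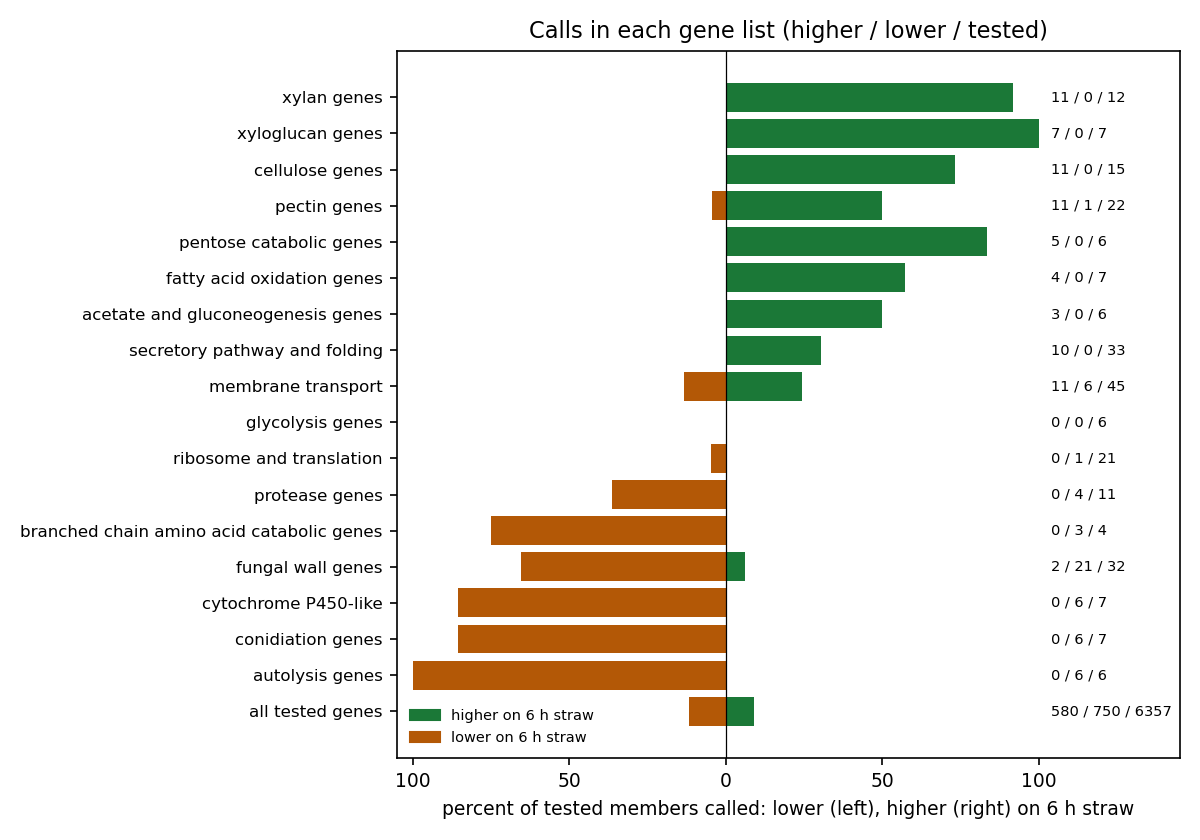
Share of tested members called in each gene list, with bars to the right for genes called higher and to the left for genes called lower on 6 h straw; the numbers at the right give members called higher, called lower and tested. All 7 xyloglucan genes were called higher and all 6 autolysis genes lower, against 9.12% and 11.8% of all tested genes. The study's tables from which these genes were taken partly fix both directions.

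Of the regulators that could be tested, amyR alone was called. xlnR, the xylanolytic activator, had 121 and 127 RPKM on genes on straw and 64.1 and 85.1 at 24 h starvation. It did not pass the test (log2 fold change 0.99, SE 0.39, edgeR adjusted p = 0.0745). Its groups did not overlap, which also held for 25.5% of all tested genes with straw above. creA, the carbon catabolite repressor, had 18.6 and 15.4 on straw and 16.3 and 16.9 at 24 h starvation (log2 fold change 0.27, SE 0.48). pacC, the pH regulator, had 232 and 154 on straw and 167 and 89.7 at 24 h starvation (log2 fold change 0.82, SE 0.42). Only 5 of 14 regulators listed could be matched and tested.

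amyR, the activator of starch genes, had 60.1 and 35.3 RPKM on genes on straw and 16.2 and 2.80 at 24 h starvation (log2 fold change 2.37, SE 0.60, edgeR adjusted p = 0.00627), a call lost without 24 h starvation replicate B. glaA, encoding glucoamylase, had 2454 and 2695 on straw and 202 and 399 at 24 h starvation (log2 fold change 3.34, SE 0.56), below its mean of 9001 on glucose. agdB, a gene for an α-glucosidase of starch breakdown, had 1692 and 1572 on straw and 5749 and 2037 at 24 h starvation (log2 fold change -1.01, SE 0.51), and was called lower only without 24 h starvation replicate B. The starch genes did not move as one group.

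In central metabolism part of the genes for use of acetate and fatty acids were higher on straw, and no glycolysis gene was called. Of 6 tested genes of acetate use and gluconeogenesis, 3 were called higher and none lower (median log2 fold change 2.18). With the fold threshold on the deposited RPKM, on the adjusted p alone, without straw replicate A or without 24 h starvation replicate A, 5 were called. An01g09270, a putative isocitrate lyase of the glyoxylate bypass, had 2025 and 5083 RPKM on genes on straw and 782 and 394 at 24 h starvation (log2 fold change 2.84, SE 0.56, edgeR adjusted p = 0.000749). An15g01860, annotated to glyoxylate metabolism and acetate catabolism, had 558 and 618 on straw and 49.8 and 53.7 at 24 h starvation (log2 fold change 3.75, SE 0.52). The isocitrate lyase gene was as high at 6 h starvation, with a mean of 3383, while An15g01860 had a mean of 163 there. An04g05620, of the acetate catabolic term, had 1182 and 1965 on straw and 940 and 332 at 24 h starvation and was not called, its ratio being 2.47.

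Fatty acid oxidation genes, whose direction is likewise not independent evidence, gave 4 of 7 called higher and none lower (median log2 fold change 1.98). An11g02590, of the fatty acid oxidation term, had 275 and 540 RPKM on genes on straw and 46.5 and 56.3 at 24 h starvation (log2 fold change 3.25, SE 0.46). An01g04690, an ortholog of the peroxisomal ATP carrier, had 202 and 302 on straw and 40.3 and 53.0 at 24 h starvation (log2 fold change 2.70, SE 0.50). The 6 glycolysis genes that could be matched had a median log2 fold change of 1.00. gpdA, encoding glyceraldehyde-3-phosphate dehydrogenase, had 1365 and 802 on straw and 402 and 348 at 24 h starvation, a 2.89-fold ratio that missed the fold threshold (edgeR adjusted p = 0.0142) and passed it with the deposited RPKM, with the edgeR fold, or without straw replicate B. pkiA, encoding pyruvate kinase, had 137 and 79.1 on straw and 179 and 182 at 24 h starvation (log2 fold change -0.51, SE 0.39). niaD, the nitrate reductase gene, had 308 and 226 on straw and 13.8 and 14.4 at 24 h starvation (log2 fold change 4.48, SE 0.48), with a mean of 581 on glucose and 9.45 at 6 h starvation.

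Many genes acting on the fungus's own wall were lower on straw. Of 32 tested genes of enzymes acting on fungal wall polymers, 21 were called lower on straw and 2 higher, the median lying at -2.56 log2 units, and all 6 genes the study tabulated as autolysis genes were lower, at a median of -4.55. The study tabulated all of them for being raised on straw or under starvation relative to glucose, so their direction is not independent evidence. The count depended on the table: wall genes of the table for 24 h straw alone, the autolysis genes among them, gave 15 lower and none higher of 17 tested, and those tabulated for starvation gave 3 lower and none higher of 4. Wall genes of the table for 6 h straw gave 2 higher and 3 lower of 11, at a median of 1.31 log2 units. chiB, the autolytic chitinase gene, had 27.3 and 21.2 RPKM on genes on straw and 2634 and 3599 at 24 h starvation (log2 fold change -6.77, SE 0.50, edgeR adjusted p = 6.13e-08). engA, an endo-β-1,3-glucanase gene, had 22.2 and 24.4 on straw and 1007 and 832 at 24 h starvation (log2 fold change -5.05, SE 0.49). An01g04560, a β-glucanase gene of family GH16, had 7.19 and 19.9 on straw and 1031 and 1328 at 24 h starvation (log2 fold change -6.04, SE 0.60). For these 3 genes the 6 h starvation means were 29.5, 39.9 and 14.1, near the straw level, so only the 24 h cultures were high.

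Other wall genes were read at lower levels or differed less. An07g07700, a putative α-1,6-mannanase gene, had 108 and 132 RPKM on genes on straw and 1045 and 911 at 24 h starvation (log2 fold change -2.78, SE 0.40). The genes named in the rest of this paragraph, except agsD, were picked after their values were seen. agnE, a putative endo-α-1,3-glucanase gene, had no read on straw and 46.3 and 55.7 at 24 h starvation, at least 36.1-fold lower on straw. agsD, a putative α-1,3-glucan synthase gene, had 0.979 and 0.150 on straw and 114 and 89.4 at 24 h starvation (log2 fold change -7.53, SE 0.69), so this synthase gene and agnE were both lower. Only 2 of 14 listed wall synthase genes could be matched, and agsD was the only one for this glucan. The 2 wall genes called higher were transferases that remodel β-1,3-glucan: gelE had 298 and 510 on straw and 5.85 and 6.07 at 24 h starvation (log2 fold change 6.30, SE 0.59). bgtE had 490 and 309 on straw and 21.0 and 15.1 at 24 h starvation (log2 fold change 4.67, SE 0.50).

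Most of the tested markers of conidiophores and conidia, which starved mycelium can form, were lower on straw. Of 15 listed markers only 9 could be matched to a gene, and 7 of these could be tested. Of the 7 tested, 6 were called lower and none higher (median log2 fold change -4.01). Summed over the 9 markers, the level was 77.3 and 58.2 RPKM on genes on straw and 464 and 361 at 24 h starvation. brlA, the transcription factor that starts conidiophore development, had no read on straw and 85.5 and 34.2 at 24 h starvation (35 and 9 reads), at least 36.5-fold lower on straw (edgeR adjusted p = 0.000133). abaA, which acts after brlA, had 7.51 and 1.73 on straw and 29.0 and 24.7 at 24 h starvation (log2 fold change -2.49, SE 0.80, edgeR adjusted p = 0.0274). brnA, encoding a multicopper oxidase of spore pigment, had 1 read on straw and 52.8 and 33.5 at 24 h starvation, a pooled ratio of 103 (exact 95% interval 17.4 to 4185). wetA, the regulator of spore maturation, had too few reads to be tested. The 4 genes that the study tabulated as sporulation genes (ctcB, urhgB, mcoB and brnA) were all lower, and made up 4 of the 6 markers called. The study tabulated them for being raised on straw or under starvation relative to glucose, so their direction is not independent evidence. Without 24 h starvation replicate A, ctcB and urhgB lost the call and brnA could not be tested.

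medA, another developmental regulator, had 48.6 and 34.9 RPKM on genes on straw and 56.9 and 55.4 at 24 h starvation and was not called (log2 fold change -0.20, SE 0.44). In the wider class of genes described as expressed in conidia, the count was different: of 6 tested members 1, abaA, was called lower and none higher, with a median of 0.09 log2 units. The markers called rested on few reads. With all libraries thinned to 205778 reads only 2 of the markers were called, the others losing the call or having too few reads to be tested. Without 24 h starvation replicate A, abaA, ctcB and urhgB lost the call and brnA could not be tested. brlA kept its call under the 14 settings that could test it, and abaA lost its call under 5 of 15. In bulk samples, fewer cells of a type and less RNA per cell cannot be told apart, so these levels do not say how many conidiophores the cultures held, and their part in the other genes lower on straw was not tested.

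**Figure D4:**
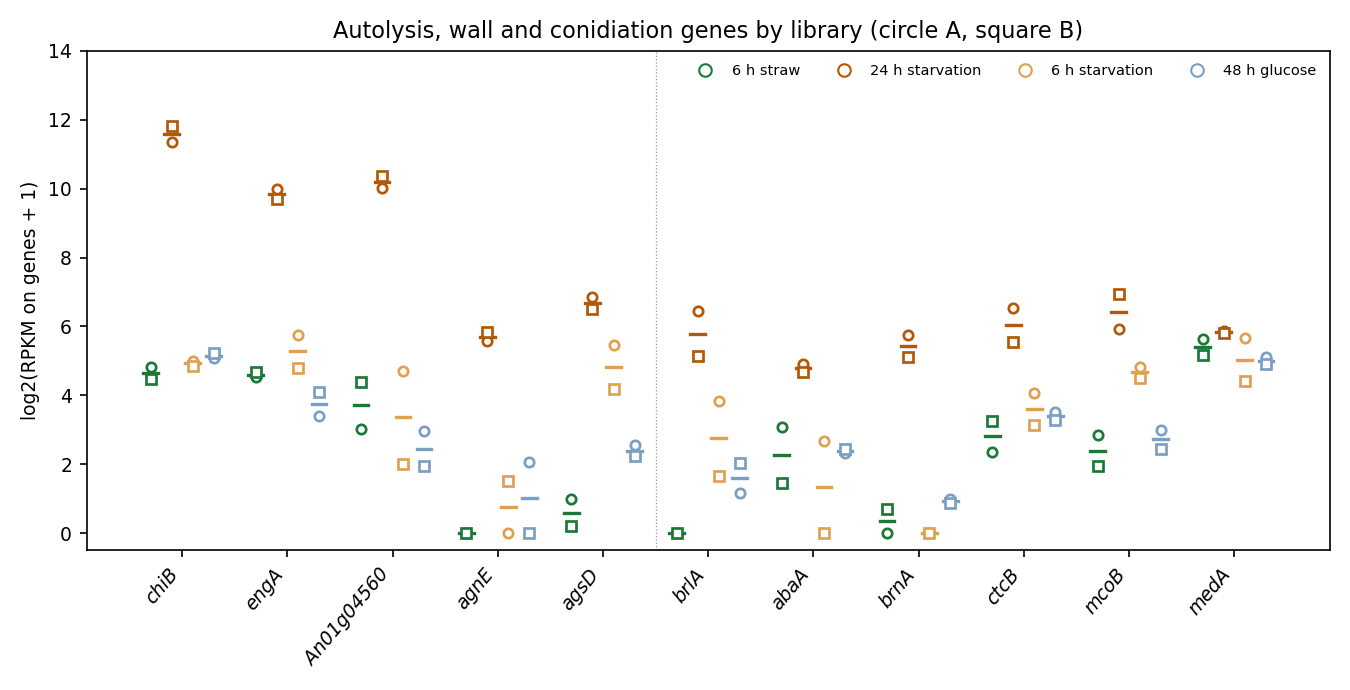
Levels of wall and autolysis genes (left) and conidiation genes (right) in all 8 libraries; the y axis is log2(RPKM on genes + 1), circles are replicate A, squares replicate B, and lines the mean of the 2 points. The mean at 24 h starvation is the highest for each gene shown, with chiB, engA and An01g04560 at or above 832 RPKM on genes, and medA differs least between groups.

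A few secreted protease genes were lower on straw. Of 11 tested protease genes, 4 were called lower and none higher, against 11.8% lower over all genes, and 2 without straw replicate B or without 24 h starvation replicate B. The wider class of proteases and peptidases by description had 2 called lower and 1 higher of 18 tested (11.1% lower), at a median of 0.11 log2 units. pepA, the secreted aspergillopepsin, had 10.9 and 7.92 RPKM on genes on straw and 61.6 and 154 at 24 h starvation (log2 fold change -3.27, SE 0.56, edgeR adjusted p = 0.000214). An01g00370, a secreted pepsin-family protease gene, had 109 and 95.6 on straw and 531 and 923 at 24 h starvation (log2 fold change -2.58, SE 0.43). The means of pepA and An01g00370 were 10.4 and 419 on 48 h glucose, and 52.0 and 44.5 at 6 h starvation. pepF and An01g01750, also called lower, had higher means on glucose (37.6 and 399) than at 24 h starvation (16.6 and 26.5). The vacuolar proteases, which work inside the cell, were not called: pepE had 714 and 899 on straw and 610 and 532 at 24 h starvation, and cpy had 433 and 547 on straw and 418 and 390 at 24 h starvation. The activator gene prtT had a log2 fold change of -0.67 (SE 0.37).

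Genes of amino acid catabolism were called in both directions. The study found branched chain amino acid catabolism enriched among genes raised under starvation over glucose, so its direction here is not independent evidence. Of 4 genes of branched chain amino acid catabolism 3 were called lower, but only 1 without straw replicate B. An09g02710 of this group had 29.4 and 36.8 RPKM on genes on straw and 243 and 240 at 24 h starvation (log2 fold change -2.60, SE 0.40). The 3 genes of the phenylalanine term split: An11g02170 had 6.18 and 4.27 on straw and 71.7 and 91.4 at 24 h starvation (log2 fold change -3.74, SE 0.62). An11g02180, its near neighbour by identifier, had 8.06 and 8.16 on straw and 107 and 131 at 24 h starvation (log2 fold change -3.59, SE 0.58). An11g00430 had 625 and 291 on straw and a single read over both starvation libraries, a pooled ratio of 306 (exact 95% interval 54.7 to 12091).

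Trehalose, a storage and stress sugar of fungi, showed its synthesis and breakdown genes apart. tppC had 105 and 93.2 RPKM on genes on straw and 614 and 584 at 24 h starvation (log2 fold change -2.35, SE 0.43). tpsB, a trehalose-6-phosphate synthase gene, had 63.4 and 65.8 on straw and 331 and 362 at 24 h starvation (log2 fold change -2.18, SE 0.39, edgeR adjusted p = 0.000305). The putative trehalase gene An01g01540 had 257 and 221 on straw and 62.1 and 39.6 at 24 h starvation (log2 fold change 2.46, SE 0.47). Neither the second synthase gene, tpsA (log2 fold change -0.92, SE 0.38), nor the neutral trehalase gene An01g09290 (0.82, SE 0.40) was called.

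Some of the large changes fell on genes with no annotation at hand. An11g07040 had no read on straw and 15257 and 14888 RPKM on genes (2923 and 1832 reads) at 24 h starvation, at least 4296-fold lower on straw. An08g09880 had 1 read on straw and 11694 and 8205 at 24 h starvation, a pooled ratio of 4077 (exact 95% interval 731 to 161131). In the other direction, An18g01570 had 203 and 289 on straw and An11g03680 had 164 and 361, and neither had a read at 24 h starvation, at least 47.6-fold and 46.0-fold higher on straw. Both genes lower on straw were already well read at 6 h starvation, with means of 1321 and 230.

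The most read genes gave a different picture. On straw the first 5 were the gene model gw1.1194.1.1, An11g00200, bgl1, glaA and An16g04600, and at 24 h starvation gw1.1194.1.1, An16g04600, An19g00210, An03g06670 and agdB. gw1.1194.1.1 took 6.69 and 2.44% of reads on genes on straw and 4.71 and 3.25% at 24 h starvation. An11g00200 took 2.59 and 2.49% on straw and 0.0184 and 0.0369% at 24 h starvation. In the straw list An11g00200, bgl1 and glaA encode enzymes that release glucose from polymers or short chains, and all 3 were called higher. The α-glucosidase gene agdB of the starvation list also encodes such an enzyme and was not called with all libraries. The other genes of both lists were not called.

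Functional descriptions were at hand for one stretch of the gene catalogue only, 892 tested genes, of which 108 (12.1%) were called higher and 90 (10.1%) lower. Among its 45 membrane transport genes 11 were called higher and 6 lower. The transporter gene An01g14660 had 579 and 543 RPKM on genes on straw and 14.6 and 9.74 at 24 h starvation (log2 fold change 5.71, SE 0.53). The metal ion transporter gene An01g01950 had 3 reads over both straw libraries and 180 and 365 at 24 h starvation, a pooled ratio of 131 (exact 95% interval 44.1 to 644). Of 35 transcription factor genes 2 were higher and 5 lower, the 5 including brlA and abaA, and the zinc-binding factor gene An01g07140 had 133 and 160 on straw and 4.08 and 6.35 at 24 h starvation (log2 fold change 5.08, SE 0.55).

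Of 4 tested autophagy genes by description none was called, at a median of 0.20 log2 units. They are too few to set against the 12.1% higher and 10.1% lower of all described genes. Of 33 genes of secretion and protein folding 10 (30.3%) were called higher and none lower. The class was made from words in the descriptions, and the members that moved most do other things: besides xynB they included An01g07000, a C14 sterol reductase of ergosterol synthesis, with 395 and 512 RPKM on genes on straw and 10.5 and 9.80 at 24 h starvation (log2 fold change 5.70, SE 0.53). Of 7 tested cytochrome P450-like genes 6 (85.7%) were lower and none higher. An01g14990 of this class had 3 reads over both straw libraries and 157 and 122 at 24 h starvation, a pooled ratio of 32.6 (exact 95% interval 10.3 to 166). Of 21 ribosome and translation genes 1 was called, An02g00840, whose description names it similar to a nonribosomal peptide synthase rather than a part of the ribosome.

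Genes lower on straw lay side by side in places. Filamentous fungi often keep the genes of a secondary metabolite pathway next to each other. In the order of protein-coding genes of the RefSeq assembly ASM285v2, used only for which genes neighbour each other, 4 runs of at least 4 consecutive genes were called lower on straw, 26 genes in all, and no such run was called higher. Only 6076 of the 14058 genes in that order could be tested, and an untested gene ended a run. The fold threshold was also harder to pass for a rise than for a fall. These runs were looked for after the values were seen, and no test was made of their number. The longest, 8 genes from An01g06820 to An01g06890, summed to 40.6 and 22.3 RPKM on genes on straw and 2600 and 1039 at 24 h starvation (log2 fold changes -6.76 to -4.24). Its genes include An01g06860, an ortholog of dioxygenases of austinol synthesis, An01g06840, a putative acid-CoA ligase, and the P450-like An01g06820. The run was higher still at 6 h starvation, at 15091 and 14917, and summed to 4093 and 7148 on glucose, so straw was the condition in which it was nearly unread.

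The other 3 runs were read little on glucose. The 6 genes from An11g07010 to An11g07060, which include An11g07040, summed to 61.0 and 51.0 RPKM on genes on straw, 17453 and 16713 at 24 h starvation, 2164 and 1983 at 6 h starvation, and 187 and 163 on glucose. The 7 genes from An11g07290 to An11g07350 summed to 60.8 and 51.7 on straw and 1257 and 1850 at 24 h starvation, with 6226 and 3267 at 6 h starvation and 157 and 121 on glucose. The 5 genes from An11g06420 to An11g06460 summed to 58.2 and 22.6 on straw and 1205 and 1339 at 24 h starvation, with 934 and 1186 at 6 h starvation and 39.5 and 37.0 on glucose. The runs from An11g07010 and from An11g06420 were thus at their highest at 24 h starvation, and the run from An11g07290 at 6 h starvation. No description was at hand for the genes of these 3 runs.

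**Figure D5:**
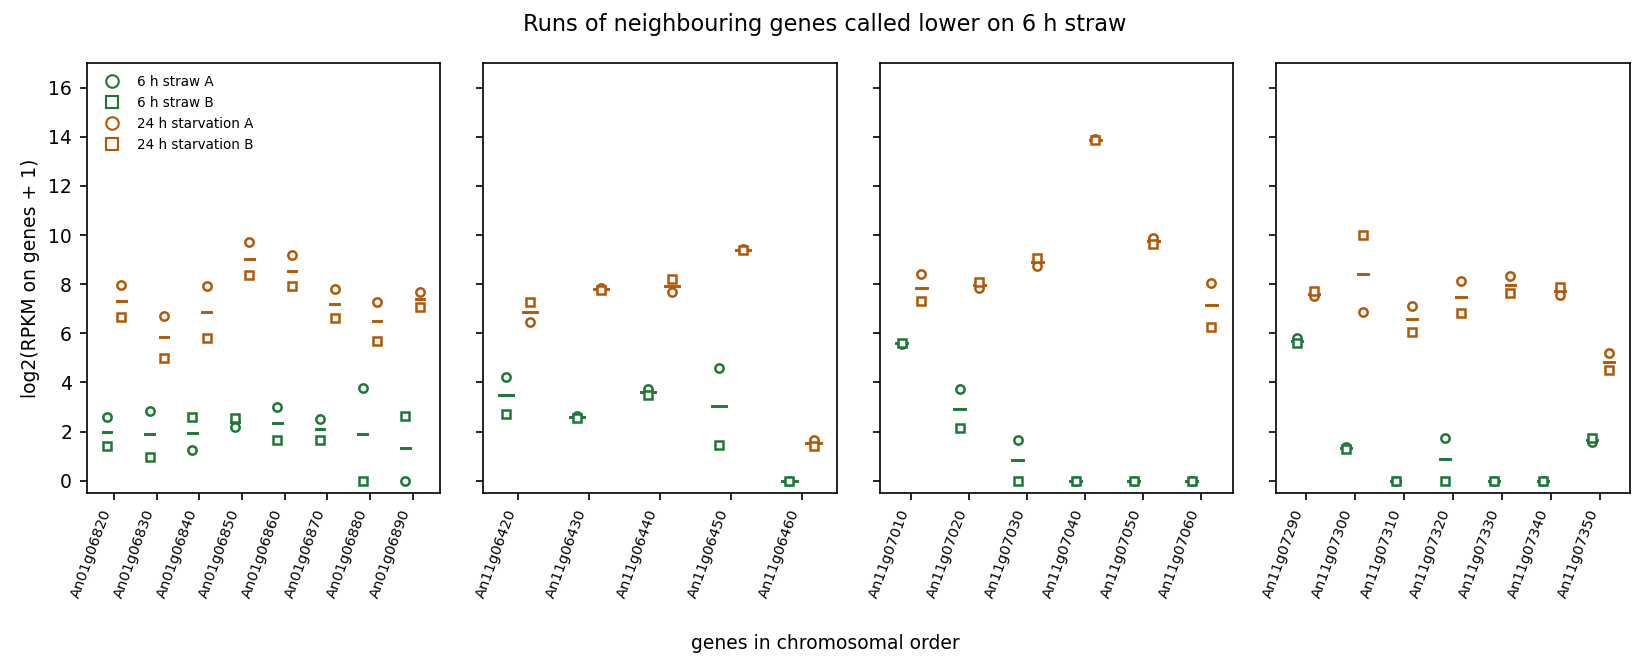
Levels of the 26 genes of 4 runs of neighbouring genes called lower on 6 h straw, in chromosomal order within each panel; the y axis is log2(RPKM on genes + 1), circles are replicate A, squares replicate B, and lines the mean of the 2 points. Straw and 24 h starvation points do not overlap at any of the genes, and straw lay below without overlap in 35.5% of all tested genes. An11g07040 reaches the highest level at 24 h starvation with no read on straw.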

How the data were processed

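RNA of 8 cultures of A. niger N402 (2 of each condition, rRNA-depleted) was sequenced by the authors on a SOLiD sequencer, mapped with LifeScope and counted with HTSeq-count from uniquely aligned forward reads on the gene models of their reference strain. Strand handling in counting is not given in the sources used here. The deposited counts are whole reads per gene. The deposited RPKM was computed by the authors over all reads of a library; here it was rescaled to reads on genes, and 5 summary rows were removed from each table, leaving 15431 gene rows. Counts were tested with edgeR 4.0.16 in R 4.3.3: filterByExpr, TMM factors (0.901 to 1.145), a dispersion trend and glmQLFit over all 8 libraries without covariates (common dispersion 0.0889, 4 residual degrees of freedom), Benjamini-Hochberg over 6357 genes. The edgeR fit was tested on counts simulated from the gene means and depths of these libraries (50 genes per fold size). It recovered 100% of 16-fold and 64% of 4-fold rises, and 96% of 16-fold and 48% of 4-fold falls. Of 5786 unchanged genes tested, 0.104% were called. The simulation gave all genes a single dispersion, changed only genes above a read floor, and set the 3-fold rule on the edgeR fold. The 24 h starvation duplicates spread more widely than the straw duplicates (SD of the log2 ratio of A to B 0.917 against 0.617). These rates therefore need not hold for the calls reported here.

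Genes unread in both libraries of the lower group carry a bound from a floor of 3 counts in that group, and where it held 1 to 3 reads the pooled ratio has an exact 95% interval; both cover counting error only. Lists came from the study's tables and term sheets, gene descriptions and RefSeq symbols, of which 125 were matched; the lists and the comparison were chosen with earlier results of these data known, and lists of autophagy genes by symbol and of adaA to adaD matched no gene. Named genes were up to 6 called members of a list in each direction, the 15 largest changes with at least 50 reads (at most 2 identifiers without annotation), the 5 most read genes, up to 3 called genes of a description class, and uncalled members with their values; genes of the fatty acid, phenylalanine, inulin and nitrate lists were named after their values were seen. Alternatives were DESeq2 1.42.0, RLE factors, total reads on genes, no filter, a replicate block, 3 other fold rules, only the 4 libraries, no glucose libraries, thinning to 205778 reads, and each library left out in turn. One gene of the wall lists is not reported here by name.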

Additional observations from a re-analysis of the deposited data

How the results depend on the processing

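The counts of called genes moved by less than 1.5 times under 14 of the 15 alternatives. Without one library they ranged from 439 to 521 higher and from 480 to 663 lower, against 580 and 750 with all; the 480 came without straw replicate B. DESeq2 gave 418 higher and 637 lower, of which 414 and 606 were shared, and no alternative gave an opposite call. Of 180 called genes named here or held in the lists, 144 kept the call under every alternative that could test them, 36 lost it under at least 1, and none changed sign. Of 29 such genes that were not called, 9 were called under at least 1 alternative. The most losses came without 24 h starvation replicate A (21), and 11 came under DESeq2. Signs turned only for 5 uncalled genes. Over the fits without one library, the log2 fold change of An01g00850 ran from -1.82 to 1.89 (the positive value without 24 h starvation replicate B), of An16g04600 from -1.01 to 0.53, of An19g00210 from -0.38 to 0.32, of gw1.1194.1.1 from -0.42 to 1.02, and of medA from -0.40 to 0.060; An19g00210 also came to 0.064 without the low-count filter. The difference in the share of reads on genes was 0.96 percentage points, and 0.25 to 1.67 without one library (chosen after seeing the data).

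The letters A and B are not stated to pair cultures. The groups were therefore treated as unpaired. Differences between A and B correlated at 0.0182 between 6 h straw and 24 h starvation. With 6 h starvation they correlated at 0.231 (6 h straw) and 0.174 (24 h starvation), and with 48 h glucose at 0.0162 and -0.0361. With the letter as a replicate block 591 genes were called higher and 757 lower, and no called gene named here lost its call. Depth limits the low genes of the starved cultures, the smallest library holding 205778 reads on genes.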

Other observations

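The 2 cultures of 24 h starvation differed more from each other than the 2 straw cultures did. Among genes with at least 50 reads on average in the group, the log2 ratio of replicate A to B had an SD of 0.617 over 2391 genes on straw and 0.917 over 1060 genes at 24 h starvation. More than 4-fold apart were 9 genes on straw (7 higher in A, 2 in B) and 37 genes at 24 h starvation (14 higher in A, 23 in B). At that read floor, which favours genes high at 24 h starvation, 282 of the 1060 genes were called lower on straw. Of the 37 genes, 23 were called lower on straw. Those below were picked after their values were seen. An07g06470 had 2 reads over both straw libraries, and at 24 h starvation no read in A and 592 in B (6031 RPKM on genes). An05g01730 had 1 read on straw, and 198 (A) and 8130 (B) RPKM on genes at 24 h starvation. Both were called lower on straw in edgeR's quasi-likelihood test (adjusted p = 0.00081 and 5.73e-05), although replicate B carried nearly all of the level at 24 h starvation. For An05g01730 replicate A also lay above the straw mean of 1.62 RPKM on genes, whereas for An07g06470 replicate A had no read.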
